A study of Mus musculus with 6 samples.

Results

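In bone marrow-derived dendritic cells (BMDCs), 10 genes of cytokine signalling were examined, namely the kinase gene Jak2, the transcription factor genes Stat3, Stat5a and Stat5b, the inhibitor genes Cish, Socs1, Socs2, Socs3 and Socs6, and the repressor gene Bcl6. They were chosen by name as genes that act downstream of GM-CSF, the growth factor that drives bone marrow progenitors into the dendritic lineage in culture. All 10 were among the 21849 genes tested, and each had at least 271 counts in every library. Of the 10 genes, 7 overlapped between the genotypes and 3 did not, beside 24.7% of all genes tested that did not. Cish was higher and Stat3 and Stat5b were lower in every Nfkb2-/- library than in every WT library. None of the 3 passed the test across all genes.

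RNA-seq was performed on polyadenylated RNA of unstimulated BMDCs from WT mice and from global Nfkb2-/- mice. The latter are deficient in every cell for Nfkb2, the gene for p100, the precursor of the noncanonical NF-κB subunit p52. Each genotype had 3 libraries, described in the study as independent biological replicates, and the labels do not say which culture or animal each came from. The labels give marrow from femur and tibia and a culture of 9 days, the first 5 with GM-CSF at 20 ng/mL and the last 4 with IL-4 at 10 ng/mL added. Strain and age are not given in the labels, and both genotypes received the same cytokines. As the knockout is global, the marrow progenitors were also deficient in Nfkb2.

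GM-CSF signals through a receptor whose common beta chain is bound by the kinase JAK2. Once activated, JAK2 phosphorylates STAT proteins, of which STAT5 is the principal one for GM-CSF, and these enter the nucleus as dimers and bind paired TTC and GAA half-sites near their target genes. Among those targets are Cish and several Socs genes, whose proteins bind receptors or kinases and damp the signal, so that their mRNA is widely read as a trace of STAT activity. STAT3 serves the gp130 family of cytokines and IL-10, and BCL6 is a zinc finger repressor that recognises letters much like those of a STAT site.

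Promoter sequences are shown because Cish and Socs genes are classical STAT targets and the STAT half-site letters can be read directly in them. RefSeq promoter windows of 300 bases (GRCm38.p6, 250 before to 50 after a transcription start) matched 8 of the 10 genes by symbol, 11 windows in all, and no window for Socs2 or Socs6 was in the table. The letters TTCNNNGAA, which read the same on both strands, occurred in 4 windows of 3 genes: Cish, Socs3 and Bcl6. In the windows printed 5′ to 3′ on the strand of the gene, capitals mark TTCNNNGAA. They lie at chr9:107296409-107296708 on the plus strand for Cish, and on the minus strand at chr11:117969317-117969616 for Socs3, chr16:23988803-23989102 for the upstream Bcl6 start and chr16:23981234-23981533 for the downstream Bcl6 start.
Cish: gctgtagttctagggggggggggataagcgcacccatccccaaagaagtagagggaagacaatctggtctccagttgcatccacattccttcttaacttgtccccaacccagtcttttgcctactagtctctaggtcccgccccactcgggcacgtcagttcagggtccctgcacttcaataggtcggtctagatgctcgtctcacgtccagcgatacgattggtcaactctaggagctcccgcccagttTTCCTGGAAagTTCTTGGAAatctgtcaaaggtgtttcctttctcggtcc
Socs3: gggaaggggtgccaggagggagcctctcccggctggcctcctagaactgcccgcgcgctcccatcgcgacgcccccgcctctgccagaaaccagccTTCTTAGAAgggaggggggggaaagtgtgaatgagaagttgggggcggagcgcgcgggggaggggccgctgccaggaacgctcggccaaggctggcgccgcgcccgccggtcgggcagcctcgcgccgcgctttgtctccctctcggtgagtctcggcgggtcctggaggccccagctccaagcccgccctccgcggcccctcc
Bcl6, upstream start: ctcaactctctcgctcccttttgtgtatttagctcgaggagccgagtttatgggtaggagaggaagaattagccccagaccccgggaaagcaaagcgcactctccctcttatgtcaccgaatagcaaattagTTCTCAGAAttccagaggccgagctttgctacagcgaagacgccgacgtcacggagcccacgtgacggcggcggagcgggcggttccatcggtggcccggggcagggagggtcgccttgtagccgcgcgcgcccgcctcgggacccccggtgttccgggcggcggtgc
Bcl6, downstream start: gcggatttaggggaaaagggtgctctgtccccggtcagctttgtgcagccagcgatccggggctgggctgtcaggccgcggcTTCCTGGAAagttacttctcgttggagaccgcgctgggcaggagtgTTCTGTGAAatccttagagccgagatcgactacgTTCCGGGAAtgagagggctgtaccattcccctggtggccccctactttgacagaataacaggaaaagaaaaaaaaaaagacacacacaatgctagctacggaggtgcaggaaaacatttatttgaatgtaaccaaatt

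The Cish window held the motif at positions 1 and 12 counted from the transcription start, so that the 2 copies lay side by side with 2 bases between them. In Socs3 the single copy began at position -154, and in the upstream Bcl6 window at position -118. The downstream Bcl6 window held 3 copies, at positions -168, -122 and -88. Of 32851 promoter windows of this length, 8.3% held at least 1 copy, 0.457% at least 2 and 0.0335% at least 3. The same half-sites with 4 bases between them in place of 3, a spacing found in many STAT6 sites, were in none of the 11 windows and in 6.95% of all windows. The κB consensus, the recognition motif of NF-κB dimers, was in 1 window, that of the downstream Stat5a start at position -234, against 8.46% of all windows. A match describes letters and not a bound site.

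Nfkb2 itself was at 215, 154 and 355 CPM (counts scaled to library size and composition) in WT replicates 1 to 3 and at 44.8, 32.3 and 32.6 CPM in Nfkb2-/- replicates 1 to 3, a log2 fold change of -2.72 ± 0.33 (SE). Some counts assigned to Nfkb2 thus remained in the Nfkb2-/- libraries. In the summed CPM of marker lists, the dendritic cell list (11 genes) lay between 5505 and 8861 in all libraries, and Itgax, which encodes CD11c, was called higher in Nfkb2-/- BMDCs. Over the other lists, Il12b (mature dendritic cells) and Cpa3 (mast cells) were called lower. No gene of any marker list was at 0 in every library. In WT replicate 3 the mature dendritic cell list (9 genes) was highest at 17630 CPM and the macrophage list (10 genes) lowest at 157 CPM, against 8908 and 1024 CPM in WT replicate 2. Eosinophil markers (5 genes) summed to 10.2 to 70.1 CPM in WT and 90.5 to 108 CPM in Nfkb2-/- libraries. Neutrophil markers summed to 107 to 436 CPM, mast cell and basophil markers to 46.6 to 58.3 CPM, stromal markers to 1.07 to 54.2 CPM, markers of other organs to 20.5 to 54.0 CPM, and B cell, T and NK cell and erythroid markers to at most 6.32 CPM. The part of these markers in the results was not tested, and in bulk RNA fewer cells of a type and less RNA per cell cannot be told apart. Depth ranged from 29863927 to 55623068 counts, and Nfkb2-/- replicate 1 stood apart, with 47952 genes detected against 27692 to 33841 in the other libraries.

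Levels differed widely between the 10 genes and kept much of their order between the genotypes. Divided by exonic length, Jak2 had the highest level at 598 CPM per kb in WT and 562 CPM per kb in Nfkb2-/- BMDCs, which was 8.66-fold and 8.72-fold above Socs2, the next gene. Jak2 ranked 29 of the 21849 genes tested per kb and 14 by mean CPM. In WT, Socs2 followed at 69.1 CPM per kb and Stat3 at 34.7 CPM per kb, and these neighbours did not overlap between libraries. From Stat5b at 17.5 CPM per kb down through Stat5a, Bcl6, Cish, Socs6 and Socs3 to Socs1 at 4.34 CPM per kb, every gene overlapped with the next one down. In Nfkb2-/- BMDCs Cish stood at place 3 with 21.3 CPM per kb, beside Stat3 at 21.1 and Stat5a at 19.6 CPM per kb, and these neighbours overlapped. In WT Cish was at place 7 with 11.1 CPM per kb.

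**Figure D1:**
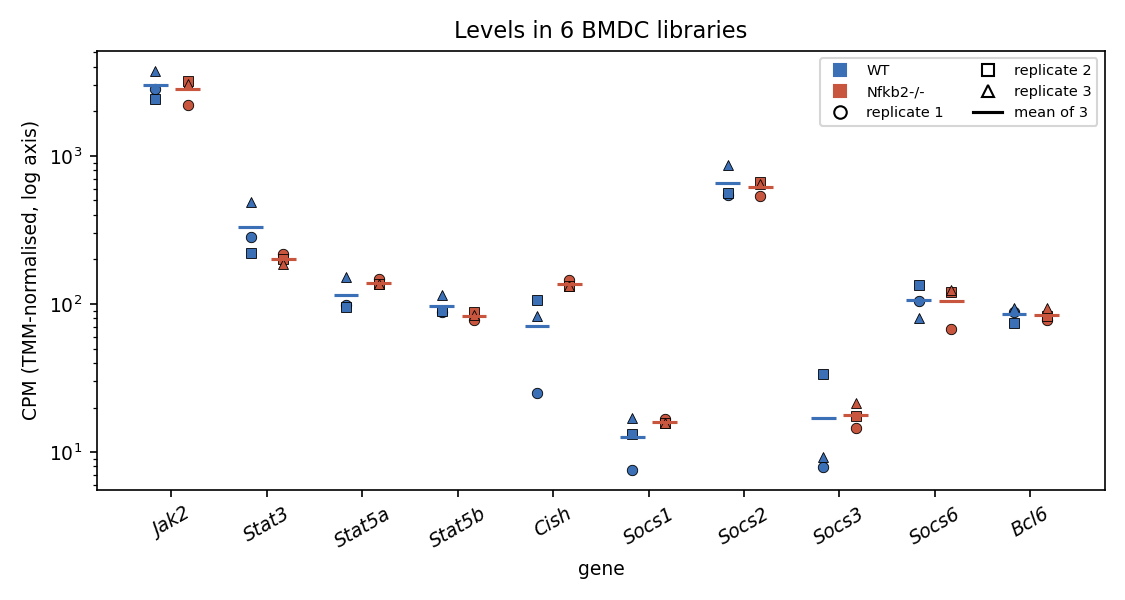
Level of each of the 10 genes in the 6 BMDC libraries, in TMM-normalised CPM on a log axis, with WT in blue, Nfkb2-/- in red, the marker shape giving the replicate and a bar at the mean of 3 libraries. The 3 Nfkb2-/- libraries of Cish sit between 132 and 145 CPM, above the WT libraries at 25.0 to 106 CPM, and those of Stat3 sit below all WT libraries.

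The kinase gene Jak2 (ENSMUSG00000024789, chr19:29251828-29313080, plus strand) was at 2843, 2430 and 3758 CPM in WT replicates 1 to 3 and at 2220, 3192 and 3065 CPM in Nfkb2-/- replicates 1 to 3. The genotypes overlapped, with both the highest and the second lowest library in WT. Its mean was 3010 ± 679.7 CPM (SD, n = 3) in WT and 2826 ± 529 CPM (SD, n = 3) in Nfkb2-/- BMDCs, a log2 fold change of -0.09 with a 95% interval from -0.67 to 0.49.

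Stat3 (ENSMUSG00000004040, chr11:100885098-100939540, minus strand), the mediator of IL-6-type and IL-10 signals, was at 282, 222 and 489 CPM in WT and at 217, 200.1 and 185 CPM in Nfkb2-/- replicates 1 to 3. Every Nfkb2-/- library was below every WT library, although WT replicate 2 and Nfkb2-/- replicate 1 nearly met. The WT mean of 331 ± 140 CPM was 1.65-fold that of 200.5 ± 15.9 CPM in Nfkb2-/- BMDCs. In edgeR's quasi-likelihood test, adjusted by Benjamini-Hochberg over all genes, the log2 fold change of -0.72 ± 0.29 (SE) had an adjusted p of 0.263 and an unadjusted p of 0.04, and the exact two-sided permutation p was 0.1, the smallest that 3 libraries against 3 can give. The size of the difference rested largely on WT replicate 3, without which the log2 fold change was -0.33. Without Nfkb2-/- replicate 1, the library that stood apart, it was -0.79. In the WT libraries Stat3 followed the same order as the mature dendritic cell markers, at 12210, 8908 and 17630 summed CPM. The order was not particular to Stat3, since Jak2, Stat5a, Bcl6 and Nfkb2 followed it too. So did the actin gene Actb, at 15490, 12810 and 20530 CPM in WT replicates 1 to 3. The correspondence was not tested.

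The STAT5 genes, whose proteins carry the GM-CSF signal, are near-identical paralogs that lie with Stat3 within 158810 bases of chromosome 11. Stat5a (ENSMUSG00000004043, chr11:100859351-100885169, plus strand) was at 97.9, 95.1 and 152 CPM in WT and at 147, 136 and 135 CPM in Nfkb2-/- replicates 1 to 3. Here WT replicate 3 was the highest of all libraries and WT replicates 1 and 2 were the lowest, so the genotypes overlapped. The log2 fold change was 0.28 with a 95% interval from -0.21 to 0.77, and it was 0.53 without WT replicate 3, 0.17 without WT replicate 1 and 0.16 without WT replicate 2.

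Stat5b (ENSMUSG00000020919, chr11:100780731-100850724, minus strand) was at 88.1, 89.1 and 114 CPM in WT and at 77.4, 88.0 and 84.6 CPM in Nfkb2-/- replicates 1 to 3. The genotypes did not overlap, but WT replicate 1 and Nfkb2-/- replicate 2 were nearly equal, at 88.06 against 87.97 CPM. The log2 fold change was -0.22 with a 95% interval from -0.59 to 0.15, and -0.08 without WT replicate 3, the highest library. Reads shared by both paralogs may be split between Stat5a and Stat5b by the counting, which makes each value uncertain. The ends of Stat3 and Stat5a also overlap by 72 bases on opposite strands, and whether strand was used in counting is not given in the sources used here.

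Among the STAT genes, ratios within a library were compared because they do not depend on the scaling of that library. The ratio of Stat3 to Stat5a was 2.88, 2.33 and 3.21 in WT and 1.47, 1.48 and 1.36 in Nfkb2-/- replicates 1 to 3. The ratio of Stat5a to Stat5b was 1.11, 1.07 and 1.33 in WT and 1.90, 1.54 and 1.60 in Nfkb2-/- replicates 1 to 3. Neither ratio overlapped between the genotypes, with log2 differences of -0.95 and 0.52. These 2 ratios were picked after their values were seen. Over all pairs of the 10 genes, 12 of 45 ratios did not overlap, while 31.5% of the pairs among 15290 genes that averaged 1 CPM or more did not, so the share among these genes was no higher than in general.

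Cish (ENSMUSG00000032578, chr9:107296026-107302784, plus strand) encodes CIS, the SOCS-box protein first known as an inducible inhibitor of STAT5 signalling. It was at 25.0, 106 and 83.0 CPM in WT and at 145, 133 and 132 CPM in Nfkb2-/- replicates 1 to 3. All Nfkb2-/- libraries lay close together above the WT libraries, while WT replicate 1 was 4.22-fold below WT replicate 2. The means were 71.2 ± 41.5 CPM (SD, n = 3) in WT and 137 ± 7.04 CPM (SD, n = 3) in Nfkb2-/- BMDCs.

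The fitted fold of Cish was 1.92 with a 95% interval from 0.917 to 4.03, which includes no difference. In the same edgeR test the log2 fold change of 0.94 ± 0.46 (SE) had an adjusted p of 0.355 (unadjusted p = 0.0756), and the exact two-sided permutation p was 0.1. By DESeq2 the log2 fold change was 0.92 ± 0.46 (SE, adjusted p = 0.204). By limma voom it was 1.18 ± 0.47 (SE, adjusted p = 0.242). Both of these tests gave an unadjusted p under 0.05. WT replicate 1 decided much of the size: without it the edgeR log2 fold change was 0.54, and without Nfkb2-/- replicate 1 it was 0.90. An antisense pseudogene and an antisense transcript overlap Cish on the other strand, Gm17040 with 75 counts and Gm17041 with 0 counts in all libraries together. The eosinophil list was likewise higher in all Nfkb2-/- libraries, and its part in the Cish values was not tested.

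Socs1 (ENSMUSG00000038037, chr16:10782240-10785536, minus strand), which inhibits JAK kinases directly, was at 7.62, 13.3 and 16.9 CPM in WT and at 16.6, 15.7 and 15.7 CPM in Nfkb2-/- replicates 1 to 3. The Nfkb2-/- libraries were nearly equal and lay within the WT range, in which WT replicate 1 was low as it was for Cish. The log2 fold change was 0.34 with a 95% interval from -0.32 to 1.005, and 0.08 without WT replicate 1 or 0.62 without WT replicate 3.

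Socs3 (ENSMUSG00000053113, chr11:117966079-117970047, minus strand) binds gp130 receptors and restrains STAT3. It was at 7.88, 33.8 and 9.33 CPM in WT and at 14.5, 17.4 and 21.4 CPM in Nfkb2-/- replicates 1 to 3. The Nfkb2-/- libraries all fell between WT replicate 2, which was 4.3-fold above WT replicate 1, and the other WT libraries. The log2 fold change was 0.07 with a 95% interval from -1.20 to 1.33, the widest of the 10 genes, and it became 1.05 without WT replicate 2, with an edgeR adjusted p of 0.0531.

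Socs2 (ENSMUSG00000020027, chr10:95385362-95417180, minus strand), best known as the brake on growth hormone signalling and a STAT5 target, was the most abundant inhibitor gene here. It was at 543, 559 and 874 CPM in WT and at 534, 667 and 642 CPM in Nfkb2-/- replicates 1 to 3. The genotypes overlapped, WT replicate 3 being the highest library. Its log2 fold change was -0.10 with a 95% interval from -0.64 to 0.44.

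Socs6 (ENSMUSG00000056153, chr18:88665224-88927481, minus strand), a regulator of receptor tyrosine kinases such as KIT, was at 104, 134 and 80.6 CPM in WT and at 68.1, 121 and 124 CPM in Nfkb2-/- replicates 1 to 3. Each genotype spanned most of the range of the other. The log2 fold change was -0.03 with a 95% interval from -0.69 to 0.64, and its sign turned to 0.01 with total counts in place of TMM. It was the only one of the 10 genes whose spread on the log2 scale was larger in Nfkb2-/- than in WT libraries, at 0.49 against 0.37.

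Bcl6 (ENSMUSG00000022508, chr16:23965052-23988852, minus strand), whose product opposes STAT-driven transcription, was at 87.8, 74.2 and 94.1 CPM in WT and at 77.8, 82.5 and 93.6 CPM in Nfkb2-/- replicates 1 to 3. The values of both genotypes were interleaved. The means were 85.3 ± 10.1 CPM in WT and 84.6 ± 8.13 CPM in Nfkb2-/- BMDCs (SD, n = 3 each). Its log2 fold change of -0.01 had a 95% interval from -0.37 to 0.35, the narrowest of the 10 genes, and was 0.08 with total counts in place of TMM.

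**Figure D2:**
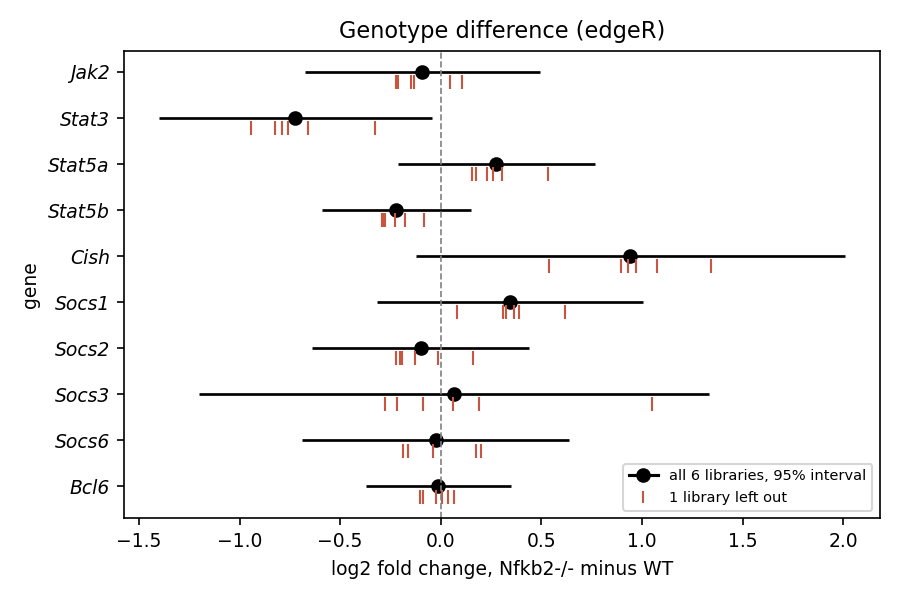
Log2 fold change (Nfkb2-/- minus WT) of each gene from edgeR, with points and lines giving the value and 95% interval from all 6 libraries and red ticks the value with 1 library left out. The interval of Stat3 is the only one that lies wholly on one side of 0, from -1.40 to -0.04, and the ticks of Cish run from 0.54 to 1.34.

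A gene was called when its adjusted p was under 0.05 and its fold change over 1.2. By edgeR, 0 of the 10 genes were called, against 1.14% of all genes tested (0.453% called higher and 0.682% lower in Nfkb2-/- BMDCs). An unadjusted p under 0.05 was reached by 1 of the 10, Stat3, against 17.1% of all genes. DESeq2 and limma voom also called 0 of the 10, against 8.6% and 2.23% of all genes. Each gave 2 an unadjusted p under 0.05, namely Stat3 and Cish. The share without overlap between genotypes, 3 of 10, was near the 24.7% of all genes, and nothing about these genes is read from it. The fitted log2 fold change was above 0 for 4 genes and below 0 for 6, with a median of -0.02 against 0.08 over all genes tested.

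The 10 genes varied more among WT than among Nfkb2-/- libraries. The SD of log2 CPM was larger in WT for 9 of the 10, against 59.4% of the 8602 genes that averaged 10 CPM or more. Its median over the 10 genes was 0.38 in WT and 0.13 in Nfkb2-/- libraries, and over the 8602 genes it was 0.22 and 0.18. The WT extremes did not fall evenly on the libraries. WT replicate 3 was the highest WT library for 7 of the 10 genes, WT replicate 2 for the other 3 (Cish, Socs3 and Socs6), and WT replicate 1 was the lowest for 5. Without WT replicate 3 the count fell to 5 of 10, against 41.5% of the 8602 genes, and without WT replicate 2 to 6 of 10, against 50.8%. Without WT replicate 1 it was 10 of 10, against 61.4%. The count thus differed with the WT library left out. Each count with a library left out sets an SD from 2 libraries against an SD from 3, which can itself change the count. Without Nfkb2-/- replicate 1 it was also 10 of 10, but then 88.0% of the 8602 genes also had the larger spread in WT.

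**Figure D3:**
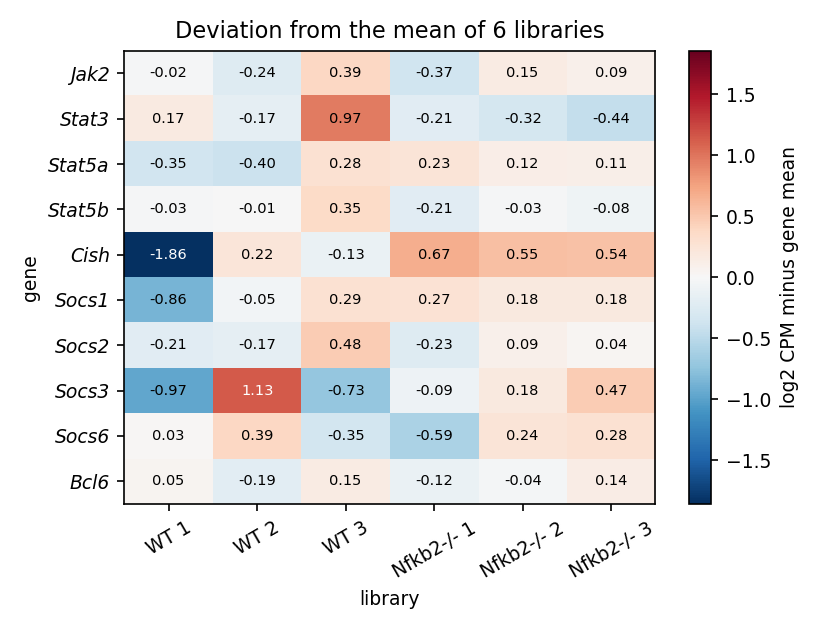
Each cell gives the log2 CPM of a gene in a library minus the mean of that gene over the 6 libraries, blue below and red above. WT replicate 1 holds the lowest value, -1.86 for Cish, and WT replicate 2 the highest, 1.13 for Socs3, whereas no Nfkb2-/- library departs by more than 0.67.

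The rest of the pathway was read from 10 lists of known genes, with 99 different genes of which 92 were tested. By edgeR, 2 of the 92 were called higher and 1 lower in Nfkb2-/- BMDCs, 26 had an unadjusted p under 0.05, and 28 did not overlap between genotypes, 14 in each direction. Over all genes tested 1.14% were called, 17.1% had such a p and 24.7% did not overlap. DESeq2 called 17 of the 92 and limma voom 7, against 8.6% and 2.23% of all genes. The differences between these shares were not tested. The shares of all genes also stand as the comparison for the counts of each list below. The median log2 fold change over the 92 was 0.02 against 0.08 over all genes. Some genes stand in 2 lists and are counted in each list, but only once among the 92.

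The remaining SOCS genes and the E3 ligase that SOCS boxes recruit gave no call. None of Socs4, Socs5 and Socs7 was called and all overlapped between genotypes, Socs4 for example at 136 ± 1.40 CPM in WT and 132 ± 21.5 CPM in Nfkb2-/- BMDCs. The ligase subunits Elob, Eloc, Cul5 and Rnf7 likewise gave 0 calls of 4, with a median log2 fold change of 0.00095. By edgeR, none of these 7 genes had an unadjusted p under 0.05, and DESeq2 and limma voom also called 0.

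Of the 7 other JAK and STAT genes, edgeR called 0 and gave 2 an unadjusted p under 0.05, and DESeq2 and limma voom called 1 each. The 2 were Stat2, which was higher in Nfkb2-/- BMDCs, and Stat4, which was lower on average. Stat4 was at 239, 144 and 379 CPM in WT and at 104, 135 and 146 CPM in Nfkb2-/- replicates 1 to 3, and overlapped. Its log2 fold change was -0.99 ± 0.34 (SE), with an edgeR adjusted p of 0.203. Jak1, the partner kinase of IL-4 and gp130 receptors, was at 345 ± 58.5 CPM in WT and 317 ± 33.5 CPM in Nfkb2-/- BMDCs, and overlapped. Stat6, which carries the IL-4 signal, was at 162, 143 and 222 CPM in WT and at 138, 128 and 119 CPM in Nfkb2-/- replicates 1 to 3, without overlap but not called. Stat2, a transcription factor gene of the interferon response, was at 53.0, 61.0 and 79.6 CPM in WT and at 132, 158 and 128 CPM in Nfkb2-/- replicates 1 to 3. It lay just outside the threshold, with a log2 fold change of 1.11 ± 0.19 (SE) and an edgeR adjusted p of 0.0507, and was named after its value was seen. Stat2 was the gene called by DESeq2 (adjusted p = 8.35e-05) and by limma voom (adjusted p = 0.0334). Without WT replicate 3 it passed in edgeR (adjusted p = 0.0391), and without WT replicate 2 it did not (adjusted p = 0.0507). With any other library left out edgeR called 0 of all genes tested, with Stat2 at an adjusted p of 0.0927 to 0.25.

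Among 21 cytokine receptor chains, 1 was called higher, 0 lower, and 4 in each direction did not overlap, beside 1.14% and 24.7% of all genes. DESeq2 called 3 of the 21 and limma voom 1. The called gene was Lepr, the leptin receptor, at 2.04, 6.89 and 2.13 CPM in WT and at 23.8, 29.0 and 40.9 CPM in Nfkb2-/- replicates 1 to 3. All Nfkb2-/- libraries were well above the WT libraries, and the log2 fold change of 3.08 ± 0.52 (SE) had an edgeR adjusted p of 0.0478. The edgeR adjusted p of Lepr rose past the threshold on leaving out any library other than WT replicate 2, with 0.07 without WT replicate 3 and at most 0.202 without WT replicate 1. Except without WT replicate 3, edgeR called 0 of all genes tested where Lepr fell short in this way. Csf2rb, the common beta chain that binds JAK2, was at 2826, 1943 and 2900 CPM in WT and at 1942, 1799 and 1784 CPM in Nfkb2-/- replicates 1 to 3. It did not overlap, by the margin between 1943 and 1942 CPM, and was not called, like its near-identical neighbour Csf2rb2, whose reads may be shared. Csf2ra, the alpha chain of the GM-CSF receptor, was at 159, 137 and 106 CPM in WT and at 269, 185 and 186 CPM in Nfkb2-/- replicates 1 to 3. Here all WT libraries lay below the lowest Nfkb2-/- library. Its log2 fold change was 0.67 ± 0.22 (SE), and it was not called (edgeR adjusted p = 0.189) and was named after its values were seen. Il6st, which encodes the gp130 chain that signals through STAT3, was at 479, 299.5 and 587 CPM in WT and at 219, 208 and 216 CPM in Nfkb2-/- replicates 1 to 3. Its log2 fold change of -1.08 ± 0.25 (SE) did not pass edgeR's test (adjusted p = 0.0921) and passed that of DESeq2 (adjusted p = 0.00184). Il4ra, the IL-4 receptor chain, was at 284 ± 57.8 CPM in WT and 204 ± 3.06 CPM in Nfkb2-/- BMDCs, without overlap and not called.

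The cytokine genes themselves were low. Csf2, Il3, Il5, Il13, Csf3 and Ifng had too few counts to be tested, and of the 6 tested edgeR called 0, with 0 at an unadjusted p under 0.05. The highest was Il6, at 20.1 ± 5.10 CPM in WT and 23.4 ± 4.41 CPM in Nfkb2-/- BMDCs. Of 12 other inhibitors of the pathway, edgeR called 0 and 3 had an unadjusted p under 0.05, while DESeq2 called 3 and limma voom 0. Cblb, a ubiquitin ligase of receptor signalling, was at 680, 477 and 895 CPM in WT and at 364, 432 and 405 CPM in Nfkb2-/- replicates 1 to 3, without overlap. It passed with DESeq2 (adjusted p = 0.0373) and not with edgeR (adjusted p = 0.171) or limma voom (adjusted p = 0.1505). Ptpn1, a phosphatase of JAK kinases, was at 146 ± 36.8 CPM in WT and 196 ± 1.44 CPM in Nfkb2-/- BMDCs, also without overlap and not called. The most abundant of these inhibitors overlapped, with the phosphatase gene Ptprc (CD45) at 968 ± 97.0 CPM in WT and 1106 ± 278 CPM in Nfkb2-/- BMDCs and the ubiquitin ligase gene Cbl at 604.5 ± 15.6 and 632 ± 82.5 CPM.

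Target genes of the STAT factors were read as 3 lists. Of 12 STAT5 targets edgeR called 0 (2 at an unadjusted p under 0.05, with 2 called by DESeq2 and 2 by limma voom), and the list had a median log2 fold change of 0.27. Pim1, a survival kinase gene induced by STAT5, was at 379, 466 and 514 CPM in WT and at 482, 456 and 434 CPM in Nfkb2-/- replicates 1 to 3, which overlapped with a log2 fold change of 0.01. Ccnd2, the cyclin D2 gene, was at 37.6, 169 and 69.3 CPM in WT and at 623, 836 and 562 CPM in Nfkb2-/- replicates 1 to 3. These Ccnd2 values were far apart, with a log2 fold change of 2.87 ± 0.54 (SE), and the edgeR adjusted p was 0.0572. Ccnd2 was among the genes called by DESeq2 (adjusted p = 5.47e-07) and by limma voom (adjusted p = 0.0292). Id2 and Mcl1, also among the most abundant of the list, were lower on average in Nfkb2-/- BMDCs, overlapped and were not called. Id2 was at 978 ± 275 CPM in WT and 753 ± 182 CPM in Nfkb2-/- BMDCs, and Mcl1 at 538 ± 138 and 428 ± 86.5 CPM.

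Of 12 STAT3 targets edgeR, DESeq2 and limma voom called 0, with 5 at an unadjusted p under 0.05 by edgeR, and the median log2 fold change was -0.06. Zfp36, the tristetraprolin gene that limits cytokine mRNA, was at 256 ± 58.3 CPM in WT and 165 ± 19.4 CPM in Nfkb2-/- BMDCs, and Nfil3, a transcription factor gene of dendritic cell development, at 111 ± 53.4 and 65.2 ± 3.18 CPM. Both were without overlap, lower in Nfkb2-/- libraries and not called. The hypoxia factor gene Hif1a, in contrast, was at 248 ± 39.6 CPM in WT and 360.3 ± 87.6 CPM in Nfkb2-/- BMDCs, and overlapped.

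Of 12 STAT6 targets 1 was called higher and 5 did not overlap, all of them higher in Nfkb2-/- BMDCs, beside 1.14% and 24.7% of all genes, and the median log2 fold change was 1.58. DESeq2 called 5 of the 12 and limma voom 2. The median was set in part by genes that were low in WT. Retnla, next above it at a log2 fold change of 1.73, was at 0.0474, 21.7 and 0 CPM in WT replicates 1 to 3, and overlapped. Ccl24, Alox15 and Fcer2a, all above the median, averaged 1.11, 4.065 and 0.223 CPM in WT. Ccl17, a chemokine induced by IL-4, was at 162, 360.5 and 432 CPM in WT and at 2385, 2472 and 2357 CPM in Nfkb2-/- replicates 1 to 3. It rose by 2.92 ± 0.37 (SE) on the log2 scale, with an edgeR adjusted p of 0.0306. The call of Ccl17 was lost without WT replicate 1 (edgeR adjusted p = 0.124). It was also lost without Nfkb2-/- replicates 1, 2 or 3 (edgeR adjusted p = 0.0876, 0.163 and 0.156). Without any one of these libraries edgeR called 0 of all genes tested, so the loss was not particular to Ccl17. The log2 fold change stayed between 2.60 and 3.21. Chil3, a secreted chitinase-like protein, was at 925 ± 336 CPM in WT and 2508 ± 489 CPM in Nfkb2-/- BMDCs (edgeR adjusted p = 0.0879). The lectin gene Mgl2 was at 156 ± 132 and 665 ± 58.0 CPM (edgeR adjusted p = 0.162). Both passed with DESeq2 (adjusted p = 0.000425 for Chil3 and 0.00582 for Mgl2). Neither passed with limma voom (adjusted p = 0.0524 and 0.0867). Not every abundant gene of the list was higher, since the chemokine gene Ccl22 was at 8135 ± 2437 CPM in WT and 5752 ± 364 CPM in Nfkb2-/- BMDCs, and overlapped.

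Among 7 tested partners and relatives of Bcl6, edgeR called 1 lower and 0 higher, beside 1.14% of all genes. An unadjusted p under 0.05 was reached by 3, beside 17.1% of all genes. DESeq2 called 3 of the 7 and limma voom 1, against 8.6% and 2.23% of all genes. The gene called by edgeR was Prdm1, whose product Blimp-1 and BCL6 repress each other in lymphocytes. Prdm1 was at 51.9, 72.4 and 56.3 CPM in WT and at 22.6, 19.1 and 18.9 CPM in Nfkb2-/- replicates 1 to 3. It fell in every Nfkb2-/- library below every WT library, with a log2 fold change of -1.57 ± 0.18 (SE) and an edgeR adjusted p of 0.0277, while Bcl6 itself stayed within the spread between replicates. The call of Prdm1 was lost without WT replicate 1 (edgeR adjusted p = 0.124). It was also lost without Nfkb2-/- replicates 1, 2 or 3 (edgeR adjusted p = 0.0816, 0.163 and 0.156). Without any one of these libraries edgeR called 0 of all genes tested, so the loss was not particular to Prdm1. Its log2 fold change lay between -1.67 and -1.42 over all left-out libraries. The corepressor gene Bcor, at 123 ± 28.4 CPM in WT and 79.4 ± 3.90 CPM in Nfkb2-/- BMDCs, did not overlap. It was called by DESeq2 (adjusted p = 0.0462) and not by edgeR (adjusted p = 0.1615) or limma voom (adjusted p = 0.145).

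**Figure D4:**
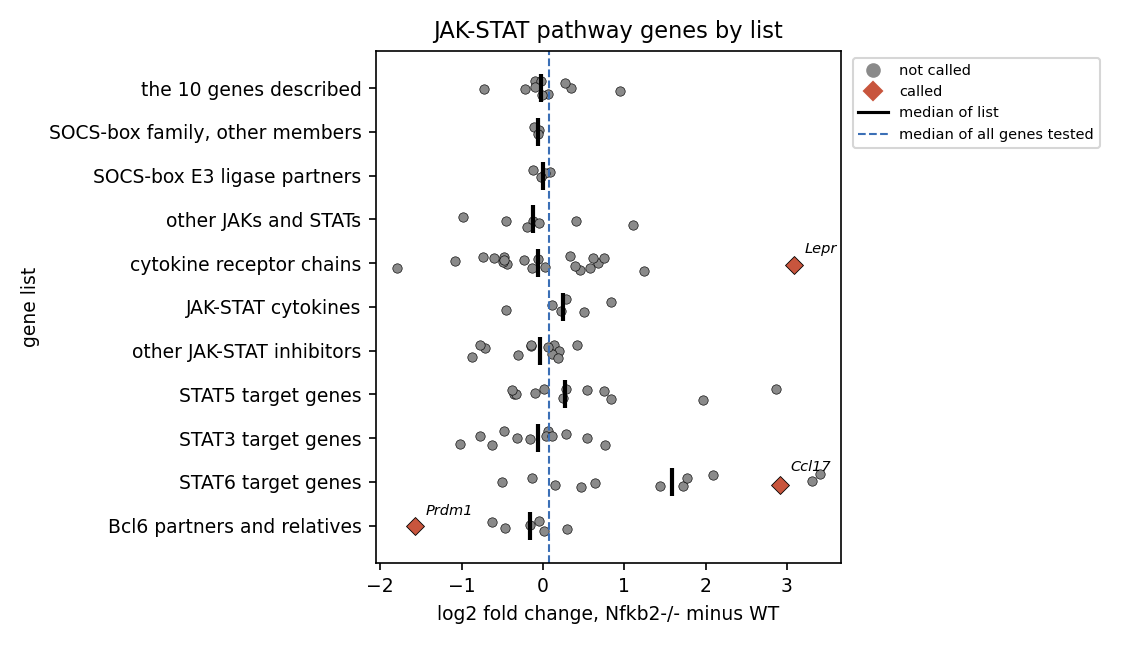
Log2 fold change (Nfkb2-/- minus WT) of the 10 genes and of the tested genes of each pathway list, with grey points for genes not called, red diamonds for those called, black bars at list medians and the dashed line at the median of all genes tested. The median of the STAT6 targets lies at 1.58, those of the other lists lie between -0.16 and 0.27, and Lepr, Ccl17 and Prdm1 are the 3 genes called.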

How the data were processed

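RNA-seq of polyadenylated RNA from unstimulated BMDCs was analysed, with 3 WT and 3 Nfkb2-/- libraries grouped by the sample labels. The authors deposited whole-number read counts per Ensembl gene and library, without normalization. The submitters' processing notes name HISAT2 and GRCm38 (mm10), while the counting tool, annotation and use of strand are not given in the sources used here. A joined table of all libraries repeated these values and is left aside.

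The 21849 genes tested had a name in GENCODE M21 and 50 or more counts summed over all 6 libraries. IDs without a name, with 1.01% to 1.75% of the counts of a library, stayed out of library sizes. Counts were TMM-normalised and compared with edgeR 4.0.16 (glmQLFit and glmQLFTest, no covariate) in R 4.3.3. A call required a fold change over 1.2 together with a Benjamini-Hochberg adjusted p under 0.05. The SE of a log2 fold change came from its size and the F statistic, and the common dispersion of the fit was 0.219. Exact permutation tests were two-sided. An edgeR, DESeq2 or limma voom p-value sets the difference between genotypes against the spread between the 3 libraries of a genotype. The labels do not tie these libraries to separate cultures. The depth was 29863927 to 55623068 counts per library, and the spread between libraries includes counting error. Levels per kb used the exonic length in GENCODE M21.

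The alternatives were DESeq2 1.42.0, limma voom (limma 3.58.1), other scalings and filters, a replicate block, an adjusted p under 0.1 and each library left out in turn. The tests were tested on simulated counts. The genes named are the 10 chosen genes, every called gene of the pathway lists and up to 4 of the most abundant genes of each list, and Nfkb2, except that not every such gene is reported here. Stat2, Csf2ra, Retnla, Ccl24, Alox15, Fcer2a and the gene ratios were chosen after their values were seen. The genes and lists were chosen with earlier results of these data known. Promoter windows came from RefSeq (GRCm38.p6).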

Additional observations from a re-analysis of the deposited data

How the results depend on the processing

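None of the 10 genes was called under any of the alternatives, including DESeq2, limma voom and an adjusted p under 0.1, and with each library left out. The edgeR count of 248 genes called over all genes became 1878 with DESeq2, 488 with limma voom, 397 with filterByExpr, 1625 with at least 1 count in any library, 459 with at least 10 counts in every library and 808 at an adjusted p under 0.1, and ranged from 0 to 1248 with 1 library left out. The 3 pathway genes called became 17, 7, 6, 16, 6 and 10 in the same order, and ranged from 0 to 14 with 1 library left out. Where edgeR called 0 genes, without WT replicate 1 or without Nfkb2-/- replicates 1, 2 or 3, between 2325 and 4088 genes had an unadjusted p under 0.05. With a replicate block 0 genes and 0 pathway genes were called, 3331 genes had an unadjusted p under 0.05, and the log2 fold change was 1.16 for Cish and -0.64 for Stat3. The labels give only a number in common, and deviations from the genotype means correlated at 0.262, 0.148 and 0.0224 for the same numbers, so the numbers were not taken as pairs. WT replicate 2 correlated best with Nfkb2-/- replicate 3, at 0.164. Called genes fell short of the threshold in 7 of 14 alternatives for Lepr and in 5 each for Ccl17 and Prdm1, and Stat2 passed it in 7. For Ccl17 and Prdm1 these 5 were the alternatives in which edgeR called 0 of all genes tested.

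Signs turned for 5 of the 10 genes, all with log2 fold changes near 0. Over the 6 ways to leave out 1 library, log2 fold changes ranged from -0.22 to 0.16 for Socs2, from -0.28 to 1.05 for Socs3, from -0.19 to 0.20 for Socs6, from -0.22 to 0.10 for Jak2 and from -0.103 to 0.0662 for Bcl6. With total counts in place of TMM it was 0.0149 for Socs6 and 0.0796 for Bcl6, and with at least 10 counts in every library 0.0023 for Bcl6. The direction of Cish (0.54 to 1.34, adjusted p 0.0763 to 0.501), Stat3 (-0.94 to -0.33, adjusted p 0.0936 to 0.456), Stat5a, Stat5b and Socs1 held under every edgeR, DESeq2 and limma voom alternative. The ratios within libraries, added after seeing the data, ranged with 1 library left out from 0.43 to 0.62 for Stat5a to Stat5b and from -1.08 to -0.85 for Stat3 to Stat5a on the log2 scale. Depth gave each of the 10 genes at least 271 counts per library, and how far counting error limits their differences was not tested.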

Other observations

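Cish and Stat5a kept a nearly constant ratio in the Nfkb2-/- libraries. It was 0.984, 0.982 and 0.976 in Nfkb2-/- replicates 1 to 3 and 0.256, 1.11 and 0.544 in WT replicates 1 to 3. The genotypes overlapped through WT replicate 2. The pair was picked after its values were seen, as the one with the smallest spread in Nfkb2-/- libraries among the 45 pairs. Other pairs varied little there too, Socs1 to Stat5a at 0.1129, 0.1154 and 0.1157 and Socs1 to Cish at 0.1148, 0.1175 and 0.1185. How common such ratios are over all genes was not examined, and no link between these genes is read from them.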
